A study of Mus musculus with 18 samples.

Results

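Expression of 10 genes of the transforming growth factor beta (TGFβ) pathway was examined in macrophages of the mouse knee synovium. The set held the ligand gene Tgfb1, the receptor genes Tgfbr1 and Tgfbr2, the signal transducers Smad2 and Smad3, and Smad7, Smurf2, Pmepa1, Ski and Skil, which restrain the pathway. Members were taken by gene symbol, with earlier results of these data known, and were 10 of the 24421 symbols counted. All 10 passed the filter on low counts, which left 10550 genes for testing, and the lowest count of any member in any library was 11.

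RNA was sequenced in bulk from macrophages of adult C57BL/6 wild-type mice, sorted from digested synovium into 3 subsets. LYVE1+CX3CR1+ cells were gated as negative for MHCII and Ly6C, MHCII+CD11c- cells carried MHCII without CD11c, and MHCII+CD11c+ cells carried both. Each subset was taken from untreated mice and from mice killed 8 h after intravenous injection of immune complexes (IC) of ovalbumin and rabbit antibodies against it, with 3 libraries in each of the 6 groups and 18 in all. The study pooled the legs of several mice for a sample, and the labels do not say which libraries share a pool. The p-values therefore measure the spread between these libraries. The labels name no group given a control injection, so the injection and the IC cannot be told apart.

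Total counts ran from 245903 to 2172358 per library, with a median of 1526180. The 2 shallowest were the IC-treated MHCII+CD11c- libraries 2 (245903) and 1 (381217). Without treatment the sort genes matched the labels. Mean Lyve1 was 2372 CPM (the count scaled to the library's TMM-adjusted size) in LYVE1+CX3CR1+ cells against 797 and 378 in the MHCII+CD11c- and MHCII+CD11c+ subsets. H2-Ab1 was 20.3 against 4626 and 7162, and Itgax, which encodes CD11c, was 1.71, 6.02 and 270. After IC the order was the same, but the subsets were less distinct. Mean Lyve1 was then 3315, 1549 and 1096 CPM, H2-Ab1 34.6, 2895 and 6339, and Itgax 3.29, 45.2 and 338. Lyve1 ran from 516 to 2290 CPM in the MHCII+CD11c- libraries after IC. The part of these shifts in the results after IC was not tested. Markers of macrophages and of other cell types moved with the subsets. Summed macrophage markers, none of 10 of which was at 0, were 15300 to 15730 CPM in untreated LYVE1+CX3CR1+ cells, 11430 to 13500 in MHCII+CD11c- and 8057 to 8818 in MHCII+CD11c+. Summed B cell markers, 6 genes, reached at most 2.11 CPM in LYVE1+CX3CR1+ libraries but 214 to 384 in MHCII+CD11c- and 66.4 to 103 in MHCII+CD11c+. In the untreated libraries the 8 dendritic cell markers summed to 8.76 to 11.3, 127 to 167 and 277 to 492 CPM in the same order, and 9 neutrophil markers to 13.2 to 17.2, 775 to 1870 and 20.4 to 592. Fibroblast markers summed to 649 CPM in untreated LYVE1+CX3CR1+ library 1, of which Prg4 gave 601, and to at most 162 elsewhere. In that group the collagen genes Col1a1, Col1a2 and Col3a1 were each at most 12.1 CPM. The part of these cells in the differences below was not tested, and in bulk samples fewer cells of a type and less RNA per cell cannot be told apart.

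TGFβ is secreted in a latent form and, once freed, binds the type II receptor TGFBR2, which recruits and phosphorylates the type I receptor TGFBR1. The activated type I receptor phosphorylates SMAD2 and SMAD3, which join SMAD4 and enter the nucleus to control transcription. Several proteins act as brakes on the pathway, and the genes of some of them are induced by it. SMAD7 and the ubiquitin ligase SMURF2 act at the receptor, and PMEPA1 holds back SMAD2 and SMAD3 from the receptor. SKI and SKIL (SnoN) hold SMAD complexes in a repressive state on DNA. In tissue macrophages, TGFβ is known for sustaining resident identities, microglia being the best-studied case.

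Without treatment, LYVE1+CX3CR1+ macrophages had the highest mean of 8 of the 10 genes. Pmepa1 differed most and was 4.13-fold higher than in MHCII+CD11c- cells and 17.1-fold higher than in MHCII+CD11c+ cells, and Tgfbr1, Smurf2, Ski and Skil were also higher in both comparisons. The ligand Tgfb1 and the transducer Smad2 did not pass the test in any comparison between subsets. The test was the quasi-likelihood test of edgeR, with p-values adjusted by Benjamini-Hochberg over all genes tested. By it, 5 of 10 members passed against MHCII+CD11c- cells, all higher in LYVE1+CX3CR1+ cells, where 11.4% of all tested genes passed (4.32% higher and 7.12% lower). Against MHCII+CD11c+ cells 7 of 10 passed, again all higher, beside 21.8% of all genes (9.48% higher and 12.4% lower). Between the MHCII+ subsets 4 of 10 passed, all lower in MHCII+CD11c+ cells, beside 3.49% of all genes (1.89% higher and 1.60% lower). The median log2 difference of the members was 0.62, 1.18 and -0.69 in these comparisons, and that of all tested genes was -0.02, -0.02 and -0.01. The libraries of the 2 subsets compared did not overlap for 6, 8 and 6 of the 10 members. Of all tested genes, 28.9%, 41.3% and 22.3% did not overlap, so lack of overlap was common. The 3 comparisons share their libraries, so their counts are not independent of each other.

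**Figure D1:**
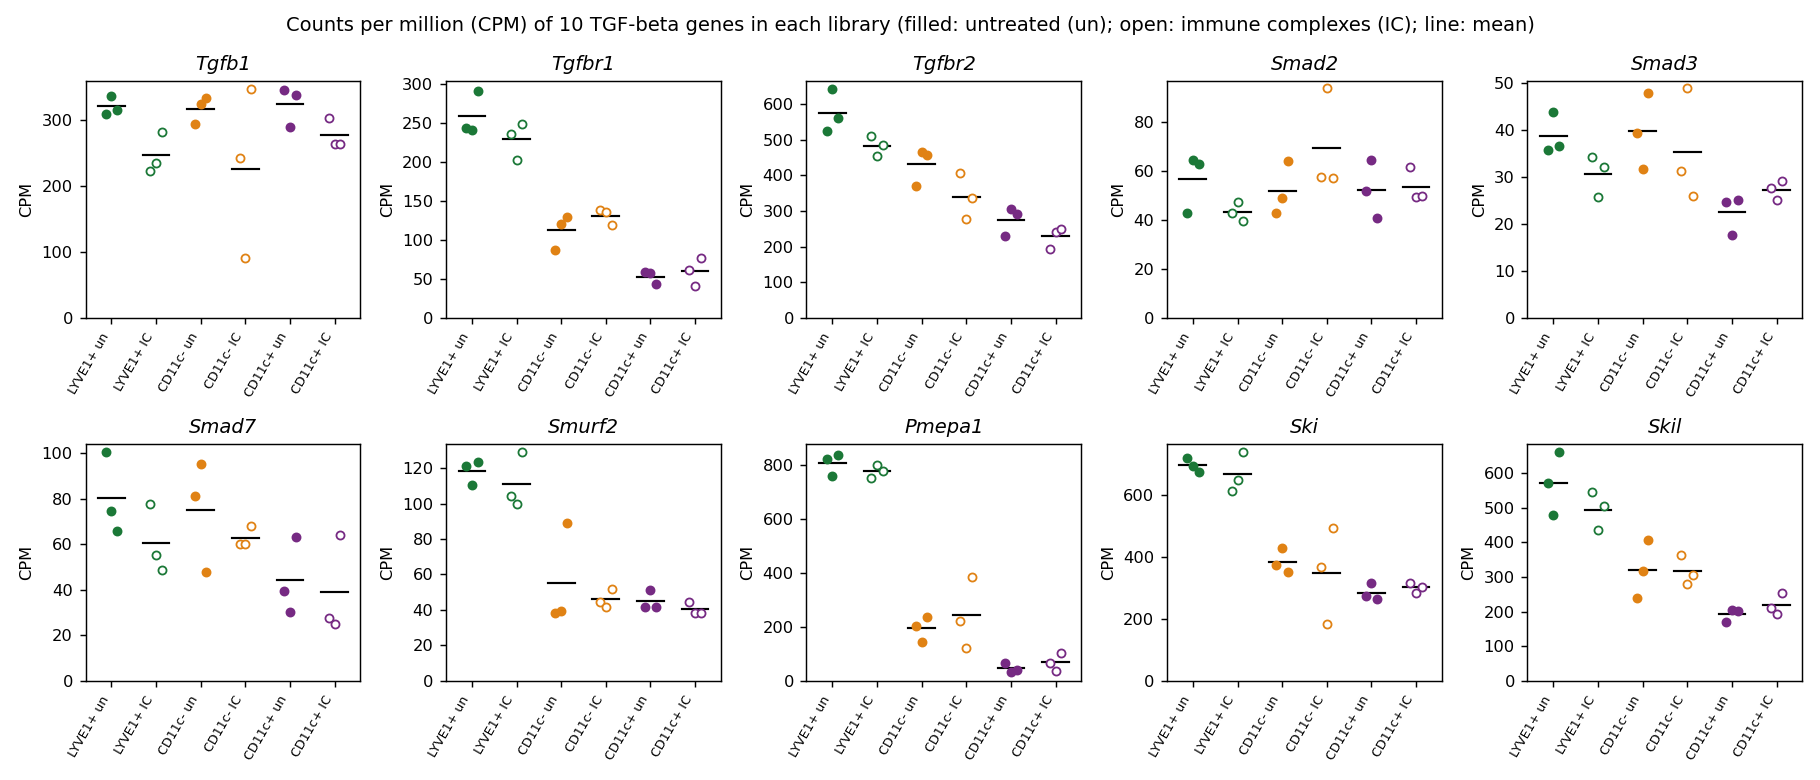
CPM, the count scaled to library size (linear axis from 0), of each of the 10 genes in the 18 libraries; filled points are untreated libraries, open points are libraries 8 h after immune complexes, and black lines are means of 3 libraries. Pmepa1 lay between 754 and 839 CPM in all 6 LYVE1+CX3CR1+ libraries and at or below 385 CPM in the other 12, whereas the untreated libraries of the 3 subsets overlapped for Tgfb1 and Smad2.

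The ligand gene Tgfb1, at chromosome 7 (25687002 to 25705077, GRCm38.p6), did not differ between untreated subsets by the test. It stood at 310, 337 and 316 CPM in the LYVE1+CX3CR1+ libraries, at 294, 324 and 334 in MHCII+CD11c- and at 345, 290 and 338 in MHCII+CD11c+. The 3 groups overlapped, and the log2 differences lay between -0.02 and 0.03, with 95% intervals that reached from -0.48 to 0.51. The other TGFβ ligand genes, Tgfb2 and Tgfb3, were too low to test, with at most 5.64 CPM in any library. Platelets are rich in TGFβ1. Of 4 platelet markers, Pf4 was 142 to 527 CPM over the 18 libraries, and Ppbp, Gp9 and Itga2b were each at most 7.53 CPM.

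The receptor genes did differ. Tgfbr1, the type I receptor, was 243, 241 and 291 CPM in the untreated LYVE1+CX3CR1+ libraries, 87.2, 121 and 130 in MHCII+CD11c- and 58.8, 57.2 and 43.9 in MHCII+CD11c+. The 3 groups did not overlap. The fold difference was 2.29 between LYVE1+CX3CR1+ and MHCII+CD11c- cells (log2 1.196, SE 0.20, adjusted p = 0.000223) and 4.86 between LYVE1+CX3CR1+ and MHCII+CD11c+ cells (log2 2.28, SE 0.21, adjusted p = 5.88e-09). Between the MHCII+ subsets the gene was 2.12-fold lower in MHCII+CD11c+ cells (log2 -1.08, SE 0.21, adjusted p = 0.00339).

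Tgfbr2, the ligand-binding type II receptor, followed the same order over a narrower range. It was 524, 642 and 562 CPM in the LYVE1+CX3CR1+ libraries, 370, 465 and 458 in MHCII+CD11c- and 231, 306 and 292 in MHCII+CD11c+. Here too the groups did not overlap. The difference of 2.09-fold between LYVE1+CX3CR1+ and MHCII+CD11c+ cells passed (log2 1.06, SE 0.16, adjusted p = 2.2e-05). That between LYVE1+CX3CR1+ and MHCII+CD11c- cells did not (log2 0.42, SE 0.16, adjusted p = 0.108). It passed in 1 of 14 alternatives, the DESeq2 Wald test (adjusted p = 0.0399). Tgfbr2 was 1.56-fold lower in MHCII+CD11c+ than in MHCII+CD11c- cells (log2 -0.64, SE 0.17, adjusted p = 0.0273), a call that was lost without MHCII+CD11c+ library 1 (adjusted p = 0.158) or 3 (0.0722) or MHCII+CD11c- library 2 (0.119) or 3 (0.121).

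The receptor pair is shown by the 250 bases before each gene's RefSeq start in build GRCm38.p6, since its members moved together but to different extents. Tgfbr1 lies on the plus strand and its window is chr4:47352972-47353221, and Tgfbr2 lies on the minus strand with its window at chr9:116175364-116175613. Tgfbr1 itself spans 47353222 to 47414926 and Tgfbr2 116087695 to 116175363. Neither window overlaps an exon in GENCODE M21. Capitals mark CAGAC, the SMAD3 and SMAD4 binding box, and GGCGC, a GC-rich SMAD motif, each searched on both strands (GTCTG and GCGCC), with GGCGCC counted as a match on each strand.
Tgfbr1: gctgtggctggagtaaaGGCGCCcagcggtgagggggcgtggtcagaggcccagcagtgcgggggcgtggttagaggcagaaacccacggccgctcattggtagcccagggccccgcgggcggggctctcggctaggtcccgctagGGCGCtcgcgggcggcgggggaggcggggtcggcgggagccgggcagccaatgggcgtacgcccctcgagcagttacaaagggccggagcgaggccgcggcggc
Tgfbr2: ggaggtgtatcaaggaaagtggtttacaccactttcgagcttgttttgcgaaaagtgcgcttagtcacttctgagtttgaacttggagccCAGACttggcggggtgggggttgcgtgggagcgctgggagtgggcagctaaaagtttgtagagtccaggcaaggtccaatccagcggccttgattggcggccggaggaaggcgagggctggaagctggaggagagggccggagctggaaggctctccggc
The Tgfbr1 window held GGCGC at 3 places, with first bases 233, 232 and 104 bases before the start, and no CAGAC. The Tgfbr2 window held CAGAC once, 160 bases before the start, and no GGCGC. Of the windows of the 10222 table entries for tested genes, 40.1% held CAGAC and 54.9% held GGCGC, so either match is common. GC content was 74.8% for Tgfbr1 and 58.4% for Tgfbr2. Of the other members, windows of Tgfb1, Smad3, Smurf2 and Ski were also in the table and were searched, with 0, 0, 1 and 0 matches to CAGAC and 1, 0, 6 and 7 to GGCGC. Smad2, Smad7, Pmepa1 and Skil were not searched.

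The balance of the receptor genes within a library does not depend on library scaling. The count of Tgfbr2 was 2.15, 2.66 and 1.93 times that of Tgfbr1 in the untreated LYVE1+CX3CR1+ libraries, 4.22, 3.82 and 3.52 times in MHCII+CD11c- and 3.92, 5.32 and 6.62 times in MHCII+CD11c+. Every LYVE1+CX3CR1+ library lay below every library of the other subsets. The mean log2 ratio was 1.16 ± 0.24 (SD, n = 3) in LYVE1+CX3CR1+ cells, 1.94 ± 0.13 in MHCII+CD11c- and 2.37 ± 0.38 in MHCII+CD11c+. With 3 libraries against 3, the two-sided exact permutation test cannot give a p below 0.10, and it gave exactly that for LYVE1+CX3CR1+ cells against either MHCII+ subset and an exact p of 0.2 between the MHCII+ subsets. After IC the mean log2 ratios were 1.08 ± 0.11, 1.36 ± 0.28 and 1.95 ± 0.49, and LYVE1+CX3CR1+ and MHCII+CD11c- libraries then overlapped (exact permutation p = 0.3). In MHCII+CD11c- cells the ratio was lower in each of the 3 IC libraries (2.93, 2.04 and 2.81) than in any untreated library, at the smallest p the exact permutation test allows (0.1), but the lowest came from the shallowest library, where Tgfbr1 had 36 counts and Tgfbr2 had 74.

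**Figure D2:**
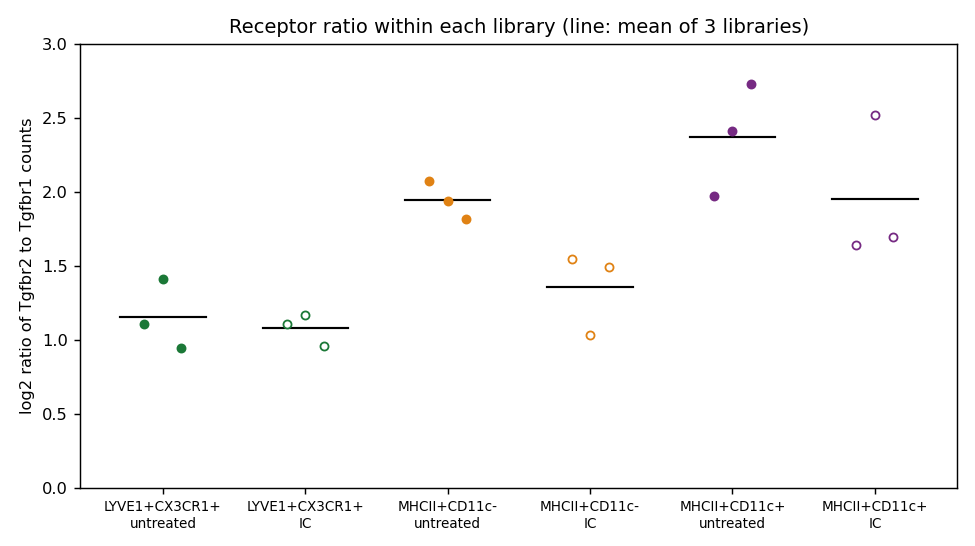
The log2 ratio of Tgfbr2 to Tgfbr1 counts in each of the 18 libraries, with filled points for untreated libraries, open points for libraries after immune complexes and lines for the means of 3 libraries. Untreated LYVE1+CX3CR1+ libraries lay between 0.95 and 1.41, and untreated libraries of the MHCII+ subsets between 1.81 and 2.73.

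Smad2 and Smad3 were expressed at low levels. Smad2 was 43.1, 64.6 and 63.0 CPM in untreated LYVE1+CX3CR1+ libraries, 43.0, 48.9 and 64.4 in MHCII+CD11c- and 52.0, 64.4 and 41.0 in MHCII+CD11c+, and no difference between the subsets passed (log2 0.13, 0.13 and 0.00). Smad3 was 35.7, 43.9 and 36.6 CPM in LYVE1+CX3CR1+ libraries, 39.5, 31.8 and 48.0 in MHCII+CD11c- and 24.7, 17.8 and 25.1 in MHCII+CD11c+. The MHCII+CD11c+ libraries thus lay below all others for Smad3. Its difference of 1.71-fold between LYVE1+CX3CR1+ and MHCII+CD11c+ cells was at the threshold (log2 0.77, SE 0.28, adjusted p = 0.0447). The call was lost without any of the 6 libraries: without LYVE1+CX3CR1+ library 1, 2 or 3 the adjusted p was 0.0687, 0.15 and 0.0759, and without MHCII+CD11c+ library 1, 2 or 3 it was 0.0784, 0.183 and 0.0738. It was also lost when no low-count genes were removed (0.121). Smad4, the shared partner of SMAD2 and SMAD3, had means of 83.2, 62.8 and 64.8 CPM in the 3 subsets and passed in no comparison (adjusted p of 0.272 to 0.953), and Smad6, an inhibitory SMAD of the bone morphogenetic protein (BMP) branch, was too low to test, with at most 4.63 CPM in any library. Smad1 and Smad5, transducers of that branch that are named here after their values were seen, were higher in LYVE1+CX3CR1+ than in MHCII+CD11c+ cells (means of 45.95 against 16.5 CPM, log2 1.46, adjusted p = 0.000312, and 65.2 against 26.5 CPM, log2 1.30, adjusted p = 0.00189). After IC, Smad1 was higher in LYVE1+CX3CR1+ than in MHCII+CD11c- cells (log2 1.945, adjusted p = 0.000648) and than in MHCII+CD11c+ cells (log2 1.34, adjusted p = 0.0014). Smad5 passed in neither of these comparisons after IC.

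Smad7, which blocks the type I receptor and marks it for degradation, varied within groups. Untreated LYVE1+CX3CR1+ libraries gave 100, 74.6 and 65.7 CPM, MHCII+CD11c- gave 81.4, 95.4 and 48.0 and MHCII+CD11c+ gave 39.4, 30.2 and 63.2. All 3 LYVE1+CX3CR1+ values lay above all 3 MHCII+CD11c+ values, but the difference missed the threshold (log2 0.84, SE 0.32, adjusted p = 0.059), and without MHCII+CD11c+ library 3 it passed (log2 1.19, adjusted p = 0.0186). Its test also passed with no low-count filter (0.0122), with a minimum of 10 counts in every library (0.0318) and when only the libraries compared were fitted (0.0193).

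Smurf2, the ubiquitin ligase that acts with SMAD7 at the receptor, separated LYVE1+CX3CR1+ cells from both other subsets. It was 121, 110 and 123 CPM in their untreated libraries, 38.4, 39.1 and 88.9 in MHCII+CD11c- and 41.5, 51.3 and 41.5 in MHCII+CD11c+. MHCII+CD11c- library 3 stood above the rest of its group and still below every LYVE1+CX3CR1+ library. The fold difference was 2.11 against MHCII+CD11c- cells (log2 1.08, SE 0.25, adjusted p = 0.00466) and 2.65 against MHCII+CD11c+ cells (log2 1.41, SE 0.24, adjusted p = 8.91e-05). The MHCII+ subsets did not differ by the test (log2 -0.33, 95% interval -0.86 to 0.20, adjusted p = 0.599).

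Pmepa1, at chromosome 2 (173224458 to 173276731), encodes a membrane protein that binds SMAD2 and SMAD3 away from the receptor and is itself induced by TGFβ. It had the widest range of the 10 genes, with the highest and lowest of the 6 group means 4.12 apart on the log2 CPM scale. Tgfbr1 followed at 2.25. The untreated LYVE1+CX3CR1+ libraries held 823, 759 and 839 CPM, MHCII+CD11c- 202, 146 and 237 and MHCII+CD11c+ 65.7, 34.2 and 40.5. The 3 groups stood clear of each other in descending order. The log2 difference was 2.05 (SE 0.30, adjusted p = 2.95e-05) between LYVE1+CX3CR1+ and MHCII+CD11c- cells, 4.10 (SE 0.33, adjusted p = 5.58e-10) between LYVE1+CX3CR1+ and MHCII+CD11c+ cells and -2.05 (SE 0.32, adjusted p = 0.000315) between MHCII+CD11c+ and MHCII+CD11c- cells. Per kilobase of exon, Pmepa1 was also the highest of the 10 genes in untreated LYVE1+CX3CR1+ cells, at a level of 164 ± 8.63 CPM per kb (SD, n = 3), above Ski at 125 ± 4.19 and Tgfbr2 at 70.3 ± 7.38. In MHCII+CD11c+ cells its level was 9.52 ± 3.39 CPM per kb, below Tgfb1 at 64.3 ± 5.96. Pmepa1 was listed with earlier results of these libraries known, so its difference is not independent evidence of a TGFβ pattern.

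The nuclear repressors Ski and Skil were higher in LYVE1+CX3CR1+ cells as well. Ski was 722, 696 and 675 CPM in the untreated libraries of that subset, 376, 429 and 350 in MHCII+CD11c- and 273, 317 and 265 in MHCII+CD11c+. It was 1.81-fold higher than in MHCII+CD11c- cells (log2 0.86, SE 0.20, adjusted p = 0.00494) and 2.45-fold higher than in MHCII+CD11c+ cells (log2 1.29, SE 0.20, adjusted p = 2.26e-05). The MHCII+ subsets did not overlap for Ski, but their difference did not pass (log2 -0.44, adjusted p = 0.28). Skil was 570, 480 and 660 CPM in LYVE1+CX3CR1+ libraries, 240, 317 and 406 in MHCII+CD11c- and 170, 205 and 202 in MHCII+CD11c+, without overlap between the 3 groups. The fold difference was 1.78 against MHCII+CD11c- cells (log2 0.83, SE 0.18, adjusted p = 0.00316) and 2.97 against MHCII+CD11c+ cells (log2 1.57, SE 0.18, adjusted p = 3.96e-07).

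Between the MHCII+ subsets Skil was 1.67-fold lower in MHCII+CD11c+ cells (log2 -0.74, SE 0.19, adjusted p = 0.0223). That call was lost without any of 5 libraries, that is without MHCII+CD11c+ library 1 (0.11), 2 (0.0587) or 3 (0.0621) and without MHCII+CD11c- library 2 (0.0643) or 3 (0.201). The ratio of Ski to Skil counts within a library did not separate the subsets. Its mean log2 was 0.30 ± 0.25, 0.29 ± 0.45 and 0.57 ± 0.16 (SD, n = 3) in untreated LYVE1+CX3CR1+, MHCII+CD11c- and MHCII+CD11c+ cells, and over its 9 comparisons between subsets or treatments the exact permutation p ran from 0.2 to 1.

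**Figure D3:**
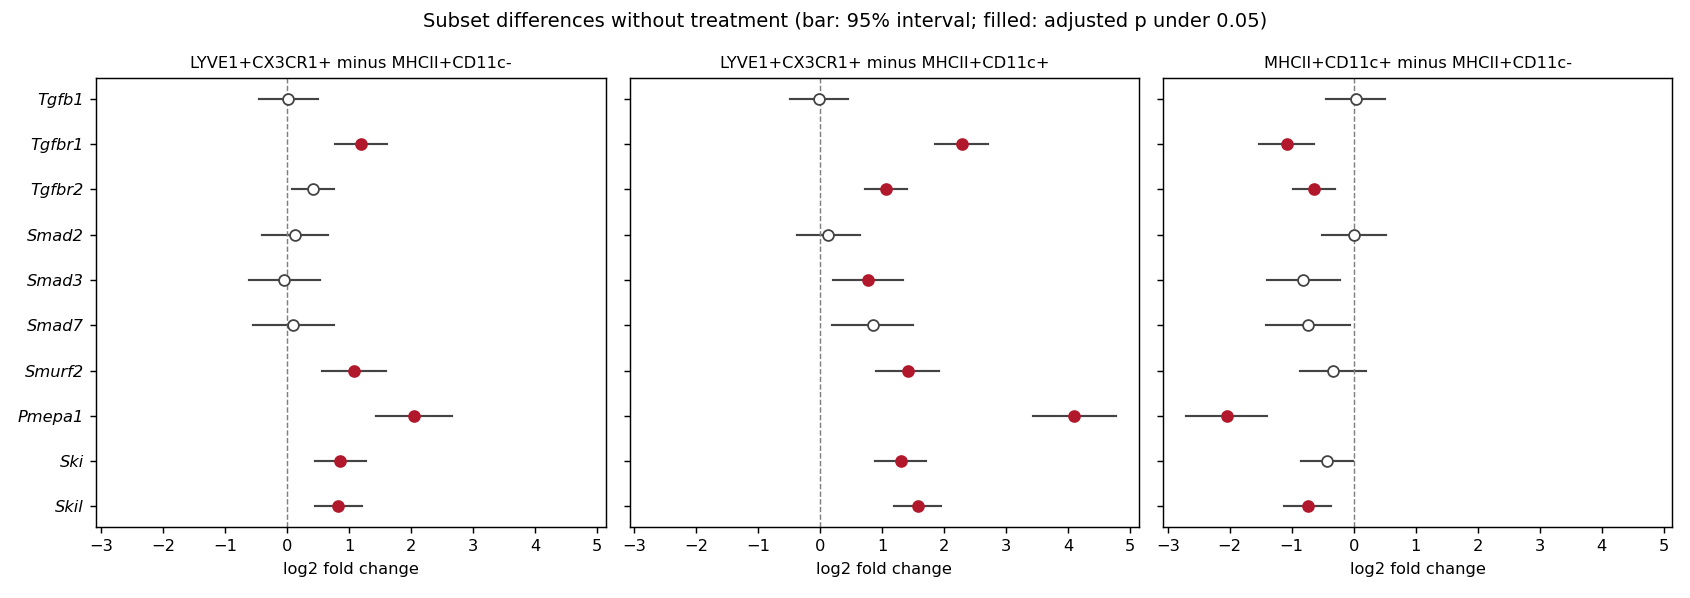
Log2 fold changes of the 10 genes between untreated subsets, with 95% intervals as bars and filled points where the adjusted p was under 0.05. The 5, 7 and 4 filled points all lie on 1 side of 0 in their panel, and the open points of Tgfb1 and Smad2 lie near 0 in all 3.

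Without LYVE1+CX3CR1+ library 1, the one with the high fibroblast marker sum, the log2 difference of Pmepa1 was 2.04 against MHCII+CD11c- cells (adjusted p = 0.000205) and 4.09 against MHCII+CD11c+ cells (adjusted p = 4.72e-09). All 5 members called against MHCII+CD11c- cells passed without any single library of the 6. The part of other cell types in these differences was not tested.

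At 8 h after IC, LYVE1+CX3CR1+ cells again had more Pmepa1, Tgfbr1, Smurf2, Ski and Skil than either MHCII+ subset. They exceeded MHCII+CD11c- cells in 5 of 10 genes, beside 9.77% of all genes (3.32% higher and 6.45% lower), and MHCII+CD11c+ cells in 6 of 10, with Tgfbr2 as the sixth, beside 19.7% (8.21% higher and 11.5% lower). MHCII+CD11c+ cells were lower than MHCII+CD11c- cells in 2 of 10, Tgfbr1 and Pmepa1, beside 2.84% of all genes (1.77% higher and 1.07% lower). In these 3 comparisons 7, 7 and 4 members did not overlap, beside 25.1%, 38.0% and 16.8% of all genes. Pmepa1 was 754, 801 and 777 CPM in LYVE1+CX3CR1+ libraries after IC, 222, 121 and 385 in MHCII+CD11c- and 66.3, 37.8 and 104 in MHCII+CD11c+. The 3 groups again did not overlap, and MHCII+CD11c- library 3 stood well above the others of its group. The log2 differences of Pmepa1 were 1.60 (SE 0.30, adjusted p = 0.000602), 3.46 (SE 0.32, adjusted p = 9.42e-09) and -1.86 (SE 0.32, adjusted p = 0.00104) in the order given above.

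Tgfbr1 after IC was 236, 202 and 249 CPM in LYVE1+CX3CR1+ libraries, 139, 136 and 119 in MHCII+CD11c- and 61.7, 41.7 and 77.4 in MHCII+CD11c+, with no overlap. It was 1.77-fold higher in LYVE1+CX3CR1+ than in MHCII+CD11c- cells (adjusted p = 0.0131), a call lost without LYVE1+CX3CR1+ library 3 (0.0508) or MHCII+CD11c- library 3 (0.0516). It was 3.78-fold higher than in MHCII+CD11c+ cells (adjusted p = 1.86e-07). Between the MHCII+ subsets it was 2.14-fold lower in MHCII+CD11c+ cells (adjusted p = 0.00605), which was lost without MHCII+CD11c+ library 2 (0.0589), without both shallow MHCII+CD11c- libraries (0.0776) and when only the libraries compared were fitted (0.0844). Tgfbr2, at 510, 456 and 486 CPM, was 2.10-fold higher in LYVE1+CX3CR1+ than in MHCII+CD11c+ cells, at 194, 242 and 251 (adjusted p = 2.85e-05). At 408, 279 and 336 CPM in MHCII+CD11c- libraries it differed from neither by the test (adjusted p = 0.0636 and 0.0772). These 2 differences passed in 5 and 3 of 15 alternatives, among them the DESeq2 Wald test (adjusted p = 0.0247 and 0.011).

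Of the brakes after IC, Smurf2, Ski and Skil were again higher in LYVE1+CX3CR1+ cells than in both other subsets. Smurf2 was 104, 99.6 and 129 CPM there against 44.5, 41.4 and 52.1 in MHCII+CD11c- (log2 1.23, adjusted p = 0.00385) and 44.7, 38.5 and 38.4 in MHCII+CD11c+ (log2 1.47, adjusted p = 0.000109). Ski was 614, 651 and 739 CPM against 369, 185 and 493 (log2 0.89, adjusted p = 0.00499) and 316, 285 and 304 (log2 1.15, adjusted p = 0.000131). The shallowest library was the one at 185. Skil was 546, 434 and 503 CPM against 364, 279 and 305 (log2 0.64, adjusted p = 0.0288) and 211, 194 and 255 (log2 1.16, adjusted p = 3.64e-05). The first of these Skil calls was lost without LYVE1+CX3CR1+ library 1 (0.103) or 3 (0.0687) or MHCII+CD11c- library 2 (0.0529) or 3 (0.063).

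Without both shallow MHCII+CD11c- libraries, which left 1 IC library of that subset assumed to vary like the other groups, Tgfbr1 alone of the 10 still passed between LYVE1+CX3CR1+ and MHCII+CD11c- cells after IC. Pmepa1 then differed by a log2 of 1.05 (adjusted p = 0.073), Smurf2 had an adjusted p of 0.0824, Ski 0.143 and Skil 0.101.

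The response to IC was then taken within each subset. No member changed by the test in any subset, and none had an unadjusted p under 0.05, although 0.464% of all genes passed in LYVE1+CX3CR1+ cells, 1.06% in MHCII+CD11c- and 0.673% in MHCII+CD11c+. With DESeq2 and with every other setting tried the member count stayed at 0 in all 3 subsets. Treated and untreated libraries did not overlap for 3, 0 and 1 members in the same order, beside 19.1%, 14.2% and 18.5% of all genes. The 95% intervals of the 10 genes reached from -1.05 to 1.25 on the log2 scale. In LYVE1+CX3CR1+ cells the fitted log2 changes of the 10 genes lay between -0.41 (Smad7) and -0.05 (Pmepa1), with a median of -0.23, against a median over all genes of -0.02. In MHCII+CD11c- cells they lay between -0.41 (Tgfb1) and 0.39 (Pmepa1), with a median of -0.16, and in MHCII+CD11c+ cells between -0.26 (Tgfbr2) and 0.58 (Pmepa1), with a median of 0.05. The median over all genes was -0.01 in both.

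Tgfb1 after IC was 223, 236 and 282 CPM in LYVE1+CX3CR1+ libraries, each below the untreated libraries of 310 to 337, yet the change did not pass (log2 -0.38, 95% interval -0.85 to 0.09, adjusted p = 0.717). It was 304, 264 and 264 CPM in MHCII+CD11c+ libraries, overlapping the untreated ones. In MHCII+CD11c- libraries it was 243, 90.4 and 347, and the lowest rested on 24 counts in the shallowest library. Smad2 after IC was 42.9, 47.4 and 39.9 CPM in LYVE1+CX3CR1+, 57.5, 94.1 and 57.1 in MHCII+CD11c- and 61.7, 49.6 and 49.95 in MHCII+CD11c+ libraries. The 94.1, again from the shallowest library and from 25 counts, lay above the range of the 9 untreated libraries and the 39.9 below it. After IC every LYVE1+CX3CR1+ library was lower in Smad2 than every library of the MHCII+ subsets, but neither difference passed (log2 -0.62 against MHCII+CD11c- cells, adjusted p = 0.163, and -0.29 against MHCII+CD11c+ cells, adjusted p = 0.499).

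Smad3 after IC ranged from 25.8 to 34.4 CPM in LYVE1+CX3CR1+, from 26.0 to 49.0 in MHCII+CD11c- and from 25.2 to 29.2 in MHCII+CD11c+ libraries. Smad7 ranged from 48.5 to 77.8, from 60.1 to 68.1 and from 25.2 to 64.0 CPM in the same order. Neither gene passed between subsets after IC, Smad3 with adjusted p of 0.749 to 0.888 and Smad7 with 0.257 to 0.934, while Smad7 passed between LYVE1+CX3CR1+ and MHCII+CD11c+ cells without MHCII+CD11c+ library 3 (0.0182).

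**Figure D4:**
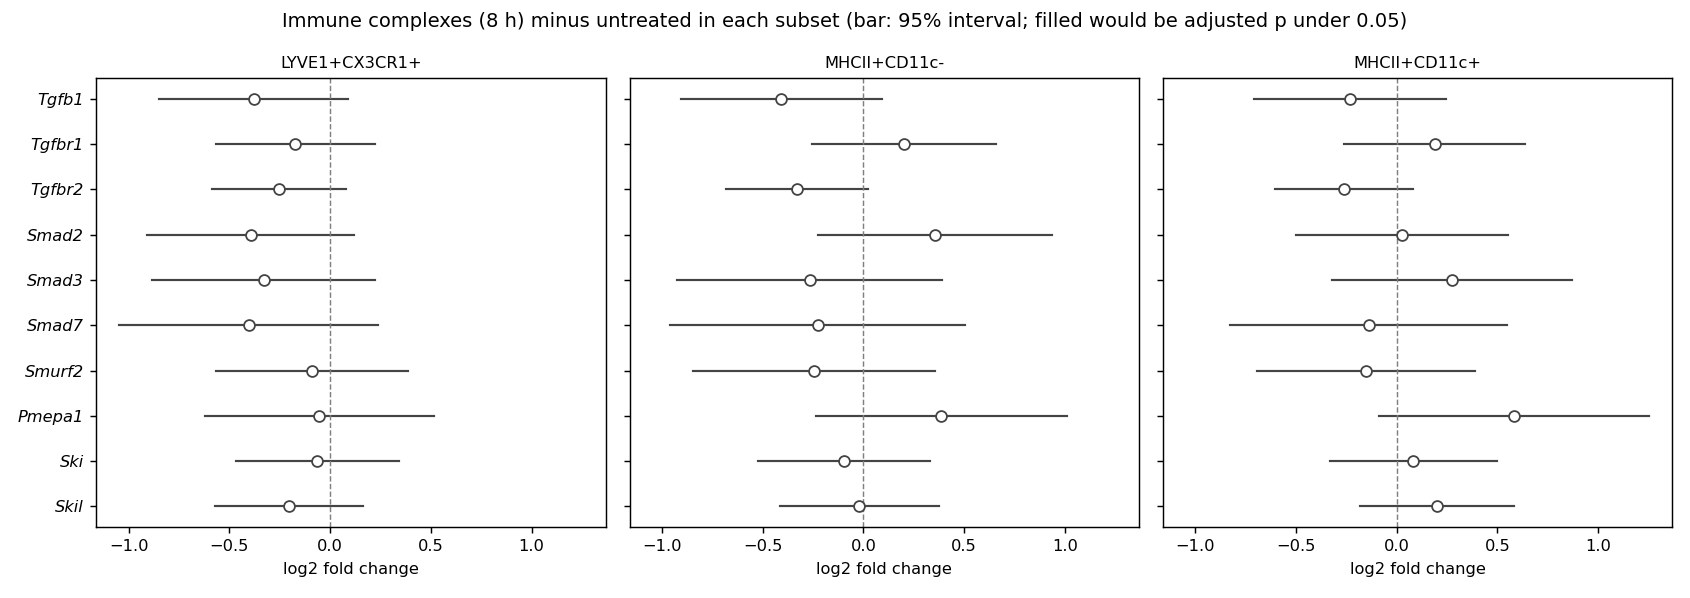
Log2 fold changes of the 10 genes 8 h after immune complexes relative to untreated libraries of the same subset, with 95% intervals as bars. Open points mark genes that did not pass the test, which is all 10 in each panel, and every interval includes 0.

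The difference of the IC response between subsets was tested as an interaction. No member passed in any of the 3 pairs of subsets, and none had an unadjusted p under 0.05. Of all genes, 0, 0.00948% and 0.00948% passed for LYVE1+CX3CR1+ against MHCII+CD11c-, LYVE1+CX3CR1+ against MHCII+CD11c+ and MHCII+CD11c+ against MHCII+CD11c- cells. At an unadjusted p under 0.05 there were 688, 474 and 642 of the 10550. The member nearest to the threshold was Smad2 between LYVE1+CX3CR1+ and MHCII+CD11c- cells (log2 -0.75, 95% interval -1.52 to 0.03, unadjusted p = 0.058). For Pmepa1 the responses differed by a log2 of -0.44 (95% interval -1.29 to 0.40), -0.64 (-1.52 to 0.24) and 0.20 (-0.72 to 1.11) in the same order, so differences of that size were not resolved.

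A further 106 genes of the pathway were listed by role, of which 79 passed the low-count filter. Without treatment, 16 were higher and 3 lower in LYVE1+CX3CR1+ than in MHCII+CD11c- cells (24.1% of those tested, beside 11.4% of all genes), 28 higher and 7 lower than in MHCII+CD11c+ cells (44.3%, beside 21.8%), and none was higher and 8 lower in MHCII+CD11c+ than in MHCII+CD11c- cells (10.1%, beside 3.49%). The first count, 19 in all, was 12 without LYVE1+CX3CR1+ library 1 or MHCII+CD11c- library 2. The median log2 difference of the list was 0.18, 0.32 and -0.31. Target genes made up the largest group, with 9, 13 and 0 of 19 higher and 0, 1 and 6 lower in the 3 comparisons. Of all genes, 4.32%, 9.48% and 1.89% were higher and 7.12%, 12.4% and 1.60% lower. The target list includes Cx3cr1, whose protein was used in the sort, and genes that the study named in these samples, so its direction is not independent evidence.

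The leading targets included genes that TGFβ sustains in microglia and a matrix gene. Olfml3, a secreted olfactomedin-family protein, had means of 789, 164 and 43.6 CPM in untreated LYVE1+CX3CR1+, MHCII+CD11c- and MHCII+CD11c+ cells (log2 2.26 and 4.17 for LYVE1+CX3CR1+ against the others, adjusted p = 5.99e-07 and 1.82e-11). Sparc, a collagen-binding matrix protein, had means of 895, 225 and 43.6 CPM (log2 1.99 and 4.37). Gpr34, a lysophospholipid receptor, had 454, 160 and 51.8 (log2 1.504 and 3.12), and Cx3cr1, the fractalkine receptor, 772, 279 and 66.1 (log2 1.47 and 3.54). Each of these 4 was also lower in MHCII+CD11c+ than in MHCII+CD11c- cells, by log2 differences of -1.91, -2.38, -1.62 and -2.07.

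Hpgd, the prostaglandin-degrading dehydrogenase, had means of 336, 166 and 79.4 CPM in the 3 untreated subsets. It was higher in LYVE1+CX3CR1+ than in MHCII+CD11c- cells (log2 1.02) and than in MHCII+CD11c+ cells (log2 2.09). Between MHCII+CD11c+ and MHCII+CD11c- cells it differed by log2 -1.07. P2ry12, a nucleotide receptor, was lower in MHCII+CD11c+ than in MHCII+CD11c- cells (33.1 against 78.9 CPM, log2 -1.25, adjusted p = 0.00882), a call lost without MHCII+CD11c+ library 1 (0.0634).

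Of 11 tested genes for latency and activation, 2 were higher and 1 lower in LYVE1+CX3CR1+ than in MHCII+CD11c- cells (all genes 4.32% and 7.12%). The integrin chains αv and β5, which together can free latent TGFβ, were the higher pair. The lower gene was Itgb3 (means of 0.747 against 11.2 CPM, log2 -3.68), called in 3 of 6 fits with 1 library left out. Against MHCII+CD11c+ cells 4 were higher and 3 lower (Itgb3, Furin and Nrros, log2 -4.26, -0.67 and -0.62), beside 9.48% and 12.4% of all genes. After IC, Thbs1 was lower in LYVE1+CX3CR1+ cells than in either other subset (log2 -4.48 and -3.99). Itgb5 had means of 915, 224 and 47.8 CPM in the 3 untreated subsets (log2 2.03 and 4.26 for LYVE1+CX3CR1+ against the others and -2.23 between the MHCII+ subsets). Itgav had 430, 180 and 101 CPM (log2 1.26, 2.08 and -0.82), and its last difference was lost without MHCII+CD11c- library 1 (0.0718) or 3 (0.203) or MHCII+CD11c+ library 2 (0.205) or 3 (0.132). Among nuclear partners none was higher and 2 of 14 were lower in untreated LYVE1+CX3CR1+ cells than in either MHCII+ subset. Of all genes, 7.12% were lower than in MHCII+CD11c- and 12.4% lower than in MHCII+CD11c+ cells. Jund, an AP-1 subunit, was among those lower than in MHCII+CD11c- cells (612 against 1114 CPM, log2 -0.86, adjusted p = 0.000514).

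Of 10 further receptor and co-receptor genes tested, 3 were higher and 0 lower in untreated LYVE1+CX3CR1+ than in MHCII+CD11c- cells (all genes 4.32% and 7.12%). Against MHCII+CD11c+ cells 5 were higher and 1 lower (all genes 9.48% and 12.4%). Of the co-receptors, Tgfbr3 (betaglycan) had means of 2.15, 5.67 and 5.89 CPM in the 3 untreated subsets and did not pass. Eng, which encodes endoglin, was higher in LYVE1+CX3CR1+ than in MHCII+CD11c+ cells (123 against 63.4 CPM, log2 0.95, adjusted p = 0.0091). Acvrl1, the type I receptor ALK1, went the other way, at 57.9 against 103 CPM (log2 -0.83, adjusted p = 0.00608). Neither passed between LYVE1+CX3CR1+ and MHCII+CD11c- cells or between the MHCII+ subsets.

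After IC the list showed 11 genes higher and 4 lower in LYVE1+CX3CR1+ than in MHCII+CD11c- cells, 24 and 5 against MHCII+CD11c+ cells, and 0 and 8 between the MHCII+ subsets, beside 9.77%, 19.7% and 2.84% of all genes. The first count, 15 in all, was 7 without LYVE1+CX3CR1+ library 2 and 8 without library 3 of that subset or without both shallow libraries. Within subsets, the response to IC passed for 1 listed gene in LYVE1+CX3CR1+ cells, 2 in MHCII+CD11c- and 4 in MHCII+CD11c+. These were 1.27%, 2.53% and 5.06% of the listed genes tested, beside 0.464%, 1.06% and 0.673% of all genes. Mmp14, a membrane metalloproteinase able to activate latent TGFβ, rose in MHCII+CD11c- cells from 18.3 to 92.5 CPM (log2 2.32, adjusted p = 0.0381) and in MHCII+CD11c+ cells from 6.32 to 43.7 CPM (log2 2.78, adjusted p = 0.0181). Its call in MHCII+CD11c- cells was lost without untreated library 1 (0.0644), 2 (0.143) or 3 (0.0666) or IC library 1 (0.185). It was also lost when only the libraries compared were fitted (0.148), and the lowest Mmp14 count among these IC libraries was 8. The call in MHCII+CD11c+ cells was lost without untreated library 2 (0.121) or 3 (0.106) or IC library 3 (0.135).

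In MHCII+CD11c+ cells Itgb5 also rose, from 47.8 to 118 CPM (log2 1.29, adjusted p = 0.0152), as did Cx3cr1, from 66.1 to 117 CPM (log2 0.85, adjusted p = 0.0471), while Runx1, a transcription factor that partners SMADs, fell from 160 to 91.5 CPM (log2 -0.80, adjusted p = 0.0366). Without untreated library 2 or 3 or IC library 3 none of the 3 passed (adjusted p of 0.102, 0.105 and 0.135 for Itgb5, 0.25, 0.207 and 0.309 for Cx3cr1, and 0.192, 0.183 and 0.0758 for Runx1). Itgb5 was also lost without IC library 1 (0.0747), Runx1 without IC library 1 (0.102) or 2 (0.231) and Cx3cr1 without IC library 2 (0.263). In LYVE1+CX3CR1+ cells Hpgd fell from 336 to 192 CPM (log2 -0.81, adjusted p = 0.0495), and that call was lost without untreated library 1 (0.207), 2 (0.149) or 3 (0.198) and without IC library 1 (0.175), 2 (0.385) or 3 (0.114). Summed neutrophil markers were higher after IC in MHCII+CD11c+ libraries, 1047 to 2356 CPM against 20.4 to 592. In MHCII+CD11c- libraries they were 1525 to 4255 CPM after IC, highest in library 3, against 775 to 1870. Summed mast cell markers were 104 to 474 CPM against 6.11 to 206 in MHCII+CD11c- libraries. In MHCII+CD11c+ libraries they were 41.7 to 257 against 6.30 to 78.9. The part of these cells in the changes after IC was not tested. No listed gene passed the test of a difference in response between subsets.

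Finally, genes whose pattern over the 6 groups was most like that of Pmepa1 were ranked by the root mean square difference of centred mean log2 CPM, among 8835 genes with a mean of at least 3. Olfml3 came first, at 0.12 log2 units, followed by Fabp3, a fatty acid-binding protein, at 0.19, Syngr1, a synaptic vesicle protein, at 0.22, the predicted gene Gm4980 at 0.25 and Itgb5 at 0.27. Olfml3 and Itgb5 were on the pathway list. All 5 fell from LYVE1+CX3CR1+ over MHCII+CD11c- to MHCII+CD11c+ cells, Olfml3 from 9.62 over 7.35 to 5.40 log2 CPM and Fabp3 from 5.14 over 3.22 to 1.49 log2 CPM without treatment. The ranking describes 6 group means of the same 18 libraries and carries no test.

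**Figure D5:**
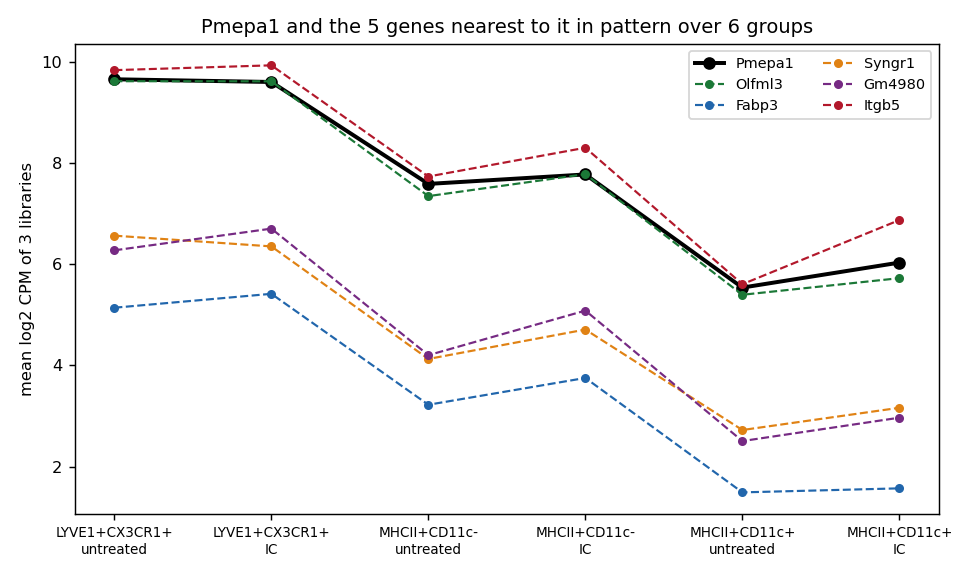
Mean log2 CPM of 3 libraries in each of the 6 groups for Pmepa1 (black) and the 5 genes nearest to it in pattern (dashed). All 6 lines step down from LYVE1+CX3CR1+ over MHCII+CD11c- to MHCII+CD11c+ cells in each treatment, and Olfml3 runs nearest to Pmepa1, with a root mean square difference of 0.12.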

How the data were processed

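RNA from 18 samples of sorted mouse synovial macrophages (6 groups of 3) was prepared by the authors with a stranded total RNA kit. After trimming (Trim Galore) they mapped the reads with HISAT2 on build mm10 and deposited whole-number gene counts made with featureCounts. Versions, annotation, strand setting and duplicate handling are not given in the sources used here. Libraries were grouped by their labels. The deposited counts were filtered with filterByExpr (minimum count 10, total 15), TMM-scaled and fitted over all 18 libraries in R 4.3.3 with edgeR 4.0.16 (quasi-likelihood F test, Benjamini-Hochberg adjustment over 10550 genes, threshold 0.05). CPM used the TMM-scaled library sizes, and log2 CPM also a prior count of 2. Ratios added 0.5 to counts and used an exact permutation test.

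The members and lists were chosen with earlier results of these data known. All members were named, with up to 8 called pathway genes by smallest adjusted p per untreated comparison, every one called after IC, and Tgfb2, Tgfb3, Smad4, Smad6, Tgfbr3, Eng and Acvrl1. The values of 1 gene that this rule names are not reported here. The fit was tested on simulated data. Alternatives were DESeq2 1.42.0, its size factors, other count filters, fits of the compared libraries alone, a surrogate variable (sva 3.50.0), blocks and left-out libraries. Deviations of same-numbered libraries of a treatment correlated at -0.0455 to 0.132 (18 pairs, median 0.036), 1 over 0.1. The median was -0.0247 in 36 pairs of a treatment with different numbers. Numbers were not taken as pairs, but these small correlations cannot exclude shared pools. Counting error alone limits counts near the minimum of 11. Fcgr2b-/- libraries were not analysed here.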

Additional observations from a re-analysis of the deposited data

How the results depend on the processing

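Of the alternative values of the 10 genes, 1831 stayed on their side of the threshold, 33 lost a call and 16 gained one, and no called value changed sign. The members called were 5 to 6 for untreated LYVE1+CX3CR1+ against MHCII+CD11c- cells, 6 to 8 against MHCII+CD11c+ cells, 6 to 7 against the latter after IC, and 0 in every setting for the IC responses and their differences. Between the untreated MHCII+ subsets, leaving out 1 library gave 2 to 4, with 2 without MHCII+CD11c+ library 1 or 3 or MHCII+CD11c- library 2 or 3. For LYVE1+CX3CR1+ against MHCII+CD11c- cells after IC, 1 library left out gave 3 to 6, fitting the compared libraries alone gave 3, and leaving out both shallow libraries gave 1. Between the MHCII+ subsets after IC the count was 1 to 3 with 1 library left out and 1 with the compared libraries alone. The causes were not tested. With a replicate block the members called were 5, 6 and 4 without treatment and 5, 6 and 2 after IC, the lost call being Smad3 (adjusted p = 0.0534), although the numbers do not show that libraries were paired.

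Counts over all genes moved more. Genes called for the IC response ran from 13 to 272 (49 as reported) in LYVE1+CX3CR1+ cells, from 19 to 337 (112) in MHCII+CD11c- and from 14 to 250 (71) in MHCII+CD11c+. Between subsets they ran from 750 to 1481 (1207), 1291 to 2839 (2303) and 187 to 580 (368) without treatment and from 460 to 1217 (1031), 1182 to 2419 (2081) and 100 to 465 (300) after IC, and for differences of the response from 0 to 20 (0), 0 to 27 (1) and 0 to 29 (1). Depth limits the MHCII+CD11c- IC group most, with 245903 and 381217 counts in 2 of its 3 libraries.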
